A study of Mus musculus with 8 samples.

Results

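The identity of a vagal sensory neuron is written in a small set of transcription factors, and 8 of them were followed here in mouse vagal ganglia: Phox2a and Tbx3 on the nodose side, Prdm12, Tlx3, Runx1 and Prrxl1 on the jugular side, and Isl1 and Pou4f1, which sensory neurons of both sides share. They were taken by symbol from a count table of 55335 genes, all 8 were found once, and all 8 were among the 17618 genes that passed the filter on low counts. Wild-type (WT) mice received either HDM, which usually stands for the allergen house dust mite, or saline, and the ganglia were taken 1.5 h after challenge 4. There were 4 HDM libraries and 4 saline libraries, each a pool of 6 to 8 ganglia from 3 to 4 animals, and the labels place libraries with the same number in the same batch. Ages of the animals were not stated. Totals were 23952130 to 26670634 counts in HDM libraries and 26868337 to 31281281 counts in saline libraries.

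In mice the nodose and jugular ganglia are fused, so a dissected vagal ganglion holds neurons of distinct embryonic origin. Nodose neurons arise from epibranchial placodes and depend on Phox2 homeodomain factors, and they supply most of the sensory fibres to lung, heart and gut. Jugular neurons arise from the neural crest and share Prdm12, Runx1 and Prrxl1 with the somatosensory neurons of dorsal root ganglia. Isl1, a LIM-homeodomain factor, and Pou4f1 (also called Brn3a), a POU-domain factor, act together in the differentiation of sensory neurons of either origin. Runx1 also acts in blood cells, and Phox2a and Isl1 also act in sympathetic neurons, which use noradrenaline and lie close by in the neck.

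Levels of the 8 genes relative to each other were compared per length, as CPM (counts scaled to library size with the TMM factors of edgeR) per kb of the gene's merged exons. Isl1 was the highest at 43.5 ± 1.35 CPM per kb and Prdm12 came next at 38.6 ± 3.20 (SD over all 8 libraries). The ranges of these 2 genes overlapped, but Isl1 was above Prdm12 in 8 of 8 libraries. Pou4f1 had 20.9 ± 1.47, Tlx3 20.5 ± 2.82 and Prrxl1 17.3 ± 2.00 CPM per kb, and neighbours in this order overlapped, with Pou4f1 above Tlx3 in 5 of 8 libraries and Tlx3 above Prrxl1 in 6, all but saline 3 and saline 4. Tbx3 followed at 12.6 ± 2.35 CPM per kb, with Prrxl1 above it in 6 of 8 libraries, all but HDM 1 and HDM 4. Runx1 had 6.59 ± 0.747 and Phox2a 3.08 ± 1.59 CPM per kb. The Runx1 value is divided by merged exons of 12025 bases, the longest of the 8, so it would be higher if shorter transcripts carried most of the reads.

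**Figure D1:**
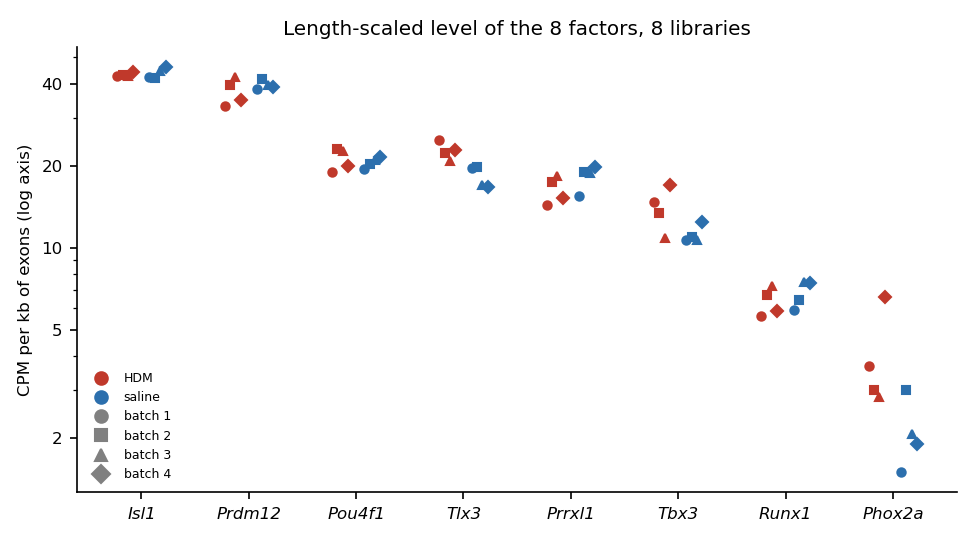
CPM per kb of merged exons (log axis) of the 8 factors, 1 point per library, HDM in red and saline in blue, with 1 marker shape per batch. Isl1 and Prdm12 lie highest at means of 43.5 and 38.6 CPM per kb, and Phox2a lies lowest at 3.08 and is the most spread.

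The genes lie on 7 chromosomes of GRCm38. Phox2a (ENSMUSG00000007946) spans 101818313 to 101822726 on the plus strand of chromosome 7, and Tbx3 (ENSMUSG00000018604) 119670669 to 119684724 on the plus strand of chromosome 5. Prdm12 (ENSMUSG00000079466) spans 31640037 to 31655795 on the plus strand of chromosome 2, Tlx3 (ENSMUSG00000040610) 33200752 to 33203589 on the minus strand of chromosome 11, Runx1 (ENSMUSG00000022952) 92601466 to 92826149 on the minus strand of chromosome 16, and Prrxl1 (ENSMUSG00000041730) 32599407 to 32649246 on the plus strand of chromosome 14. Isl1 (ENSMUSG00000042258) spans 116298281 to 116309689 on the minus strand of chromosome 13, and Pou4f1 (ENSMUSG00000048349) 104461676 to 104467999 on the minus strand of chromosome 14. The strand mode of the counting is unstated in the labels, so reads of 4 of these genes cannot be told apart from those of a gene on the opposite strand where they overlap. These are Phox2a with Inppl1 over 95 bases, Tbx3 with Tbx3os1 over 697 bases, Prdm12 with Gm13425 over 553 bases and Runx1 with Gm26626 over 7292 bases.

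Promoter windows, 250 bases before and 50 after the annotated start, are shown for Runx1 and Prrxl1, whose levels moved together over the libraries, and for Tlx3 and Phox2a, whose levels moved the other way or with other genes. The sequences are those of RefSeq on GRCm38.p6, each 5′ to 3′ on the strand of its gene, and 7 of the 8 genes had an entry. For Runx1 the window of its distal start is given. Capitals mark the core motif of RUNX factors, TGTGGT or its reverse complement ACCACA, which was searched on both strands.
Runx1, chr16:92826025-92826324, minus strand: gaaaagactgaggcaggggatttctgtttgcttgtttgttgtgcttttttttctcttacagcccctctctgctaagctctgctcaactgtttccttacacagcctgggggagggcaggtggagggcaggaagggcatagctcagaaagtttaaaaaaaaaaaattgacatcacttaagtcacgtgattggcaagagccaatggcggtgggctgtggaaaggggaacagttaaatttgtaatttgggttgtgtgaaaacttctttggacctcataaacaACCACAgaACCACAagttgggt
Prrxl1, chr14:32599677-32599976, plus strand: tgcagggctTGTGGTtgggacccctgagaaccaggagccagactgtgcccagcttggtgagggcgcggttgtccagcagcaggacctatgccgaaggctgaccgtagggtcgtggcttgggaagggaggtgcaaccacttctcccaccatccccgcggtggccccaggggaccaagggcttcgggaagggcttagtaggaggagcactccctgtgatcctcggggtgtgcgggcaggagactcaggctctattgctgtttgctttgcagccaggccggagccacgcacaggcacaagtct
Tlx3, chr11:33203539-33203838, minus strand: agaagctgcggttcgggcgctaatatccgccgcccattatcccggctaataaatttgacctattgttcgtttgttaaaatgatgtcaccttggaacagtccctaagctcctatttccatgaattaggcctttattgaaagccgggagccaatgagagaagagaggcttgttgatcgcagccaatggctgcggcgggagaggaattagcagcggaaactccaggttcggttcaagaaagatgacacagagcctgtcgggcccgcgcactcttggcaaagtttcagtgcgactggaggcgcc
Phox2a, chr7:101818063-101818362, plus strand: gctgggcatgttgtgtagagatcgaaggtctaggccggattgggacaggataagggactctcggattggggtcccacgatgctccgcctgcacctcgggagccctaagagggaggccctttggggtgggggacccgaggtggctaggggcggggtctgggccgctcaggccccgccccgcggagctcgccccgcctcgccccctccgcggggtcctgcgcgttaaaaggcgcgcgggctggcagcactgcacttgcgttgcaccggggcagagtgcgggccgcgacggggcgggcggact
The distal Runx1 window held 2 RUNX cores and the Prrxl1 window 1, and these were the 2 members with any. Another Runx1 window, chr16:92697280-92697579, which is not shown, held 0. Of 32851 promoter windows of the same length, 16.8% held at least 1 such core and 1.81% held 2 or more. The homeodomain core TAATTA (5.29% of windows), the T-box core AGGTGTGA (1.28%) and the TATA box letters TATAAA (13.6%) were in none of the members' windows. Base composition differed widely, with 51.7% GC in the window of Tlx3, 63.7% in that of Prrxl1 and 71.3% in that of Phox2a, against a median of 52.7% over all windows. These matches are letters in a window and were not tested as binding sites.

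The comparison of the groups asked whether allergen exposure went with a change in these factors. None of the 8 passed over all genes with group as the only term (edgeR's quasi-likelihood test, Benjamini-Hochberg adjusted p under 0.05), where 1.38% of all tested genes did. With the batch as a replicate block 2 of the 8, Tlx3 and Tbx3, passed as higher in HDM, where 4.05% of all genes passed and 3.01% were higher, and Phox2a had the largest difference without passing. At an unadjusted p under 0.05, 3 of the 8 differed without the block, Phox2a, Tbx3 and Tlx3, as did 18.1% of all tested genes. The median log2 fold change (HDM over saline) was 0.01 over the 8 and −0.01 over all tested genes, with 4 of the 8 above 0. In bulk ganglia, fewer cells of a type and less RNA per cell cannot be told apart.

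**Figure D2:**
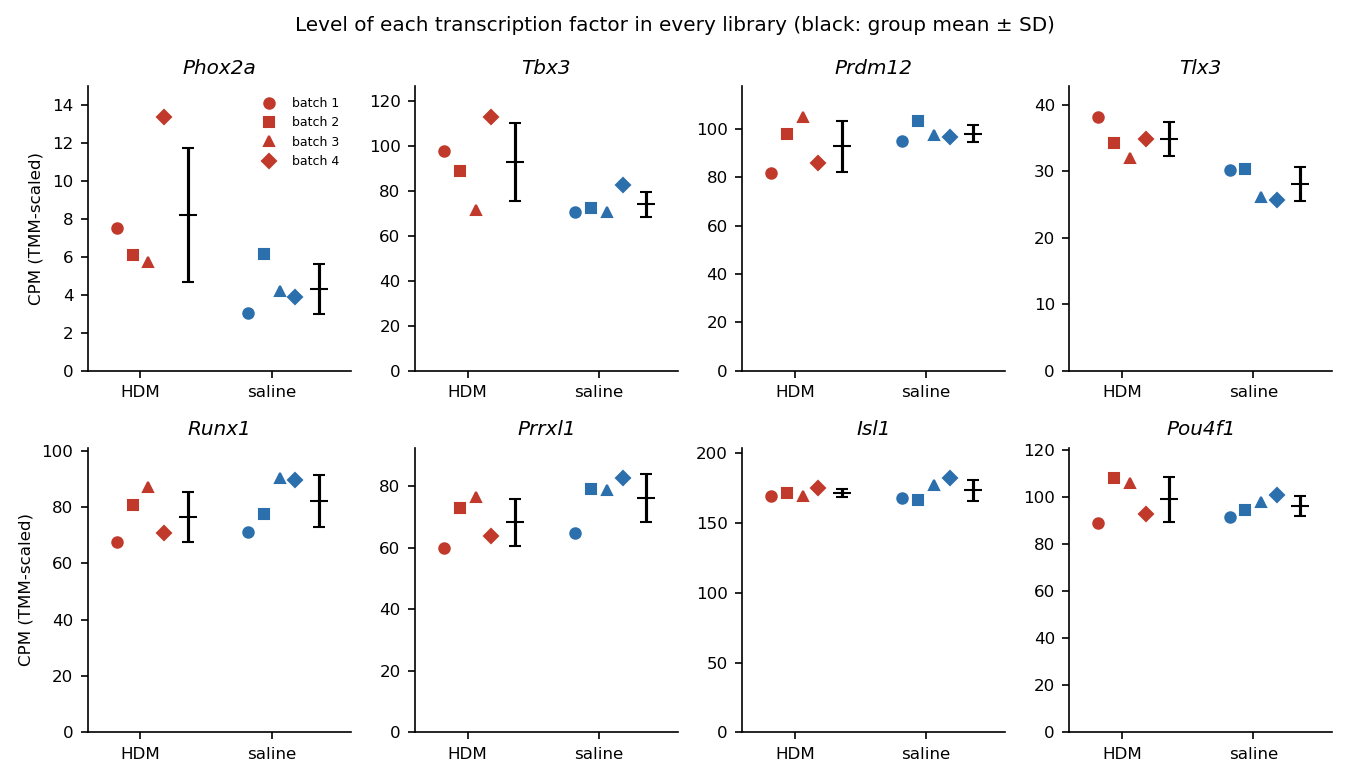
CPM of each factor in every library, HDM (red, left) and saline (blue, right), with 1 marker shape per batch and the group mean ± SD in black (n = 4). For Tlx3 the groups do not overlap, Phox2a and Tbx3 are highest in HDM 4, and Isl1 differs little over all 8 libraries.

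Among the nodose-side factors, Phox2a, a homeodomain activator that noradrenergic and visceral neurons need, had 7.53, 6.13, 5.76 and 13.4 CPM in HDM libraries 1 to 4, against 3.06, 6.15, 4.21 and 3.89 CPM in saline libraries 1 to 4. HDM 4 stood highest, and saline 2 reached into the HDM range, so the groups overlapped. The mean was 8.21 ± 3.55 CPM in HDM and 4.33 ± 1.31 CPM in saline (SD, n = 4 each), a log2 fold change of 0.92 (SE 0.26, 95% interval 0.36 to 1.48, edgeR adjusted p = 0.0906, and 0.88 with adjusted p = 0.0761 with the block). Without HDM 4 it was 0.57 (edgeR adjusted p = 0.223), and HDM was higher in 3 of 4 batches. The counts behind these values were 145 to 355 in HDM and 83 to 193 in saline, the fewest of the 8 genes.

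Tbx3, a T-box repressor expressed in nodose neurons, had 97.5, 88.9, 71.7 and 113 CPM in HDM libraries 1 to 4, against 70.6, 72.5, 70.8 and 82.4 CPM in saline libraries. HDM 3 lay among the saline libraries and the other 3 HDM libraries lay above them. Means were 92.8 ± 17.3 CPM in HDM libraries and 74.1 ± 5.59 CPM in saline libraries (SD, n = 4 each, log2 fold change 0.33, SE 0.10, 95% interval 0.10 to 0.55, edgeR adjusted p = 0.128). With the block it passed as 1.24-fold higher (log2 fold change 0.31, edgeR adjusted p = 0.0348), and it was higher in HDM in 4 of 4 batches, by log2 differences of 0.47, 0.29, 0.02 and 0.46. With block and GC correction the log2 fold change was 0.25 (edgeR adjusted p = 0.134), and without batch 4, chosen after seeing the data, the blocked value was 0.26 (edgeR adjusted p = 0.124).

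On the jugular side, Tlx3, a homeodomain factor of crest-derived sensory neurons, had 38.2, 34.2, 32.0 and 34.9 CPM in HDM libraries 1 to 4, against 30.2, 30.3, 26.1 and 25.6 CPM in saline libraries. Every HDM library lay above every saline library, as for 6.25% of all tested genes, and no member lay below throughout, as 4.39% of genes did. Means were 34.8 ± 2.57 CPM in HDM libraries and 28.1 ± 2.53 CPM in saline libraries (SD, n = 4 each, log2 fold change 0.31, SE 0.072, 95% interval 0.16 to 0.47, edgeR adjusted p = 0.0526). With the block it passed as 1.24-fold higher (edgeR adjusted p = 0.0211), and it was higher in HDM in 4 of 4 batches. Tlx3 has the highest transcript GC content of the 8, 67.3%, and genes of high GC content were higher in HDM in general. Over the 738 tested genes of at least 60% GC the median log2 fold change was 0.16, and 81.6% were above 0. With block and GC correction Tlx3 had 0.15 (95% interval 0.03 to 0.26, edgeR adjusted p = 0.225), and without batch 4 the blocked value was 0.27 (edgeR adjusted p = 0.0854). Markers of sensory neurons as a whole were also higher in every HDM library, at a sum of 10100 to 10800 CPM in HDM libraries against 9650 to 9950 CPM in saline libraries, with none at 0. Of the 11, 7 were above 0 in log2 fold change and 4 below, with a median of 0.11 (0.07 after the GC correction). Prph, the gene of peripherin, was the 1 of 11 past the threshold (log2 fold change 0.26, edgeR adjusted p = 0.0219, and 0.14 with adjusted p = 0.22 once GC was corrected), where 1.23% of all genes were higher, and with the block Avil, Tubb3 and Uchl1 passed too, 4 of 11 against 3.01% of all genes. With block and GC correction Avil, Tubb3 and Uchl1 had 0.07, 0.09 and 0.06 and did not pass (edgeR adjusted p = 0.392, 0.325 and 0.539). The sum of the sensory neuron markers carries no GC correction. Markers of myelinating Schwann cells summed to 2700 to 2980 CPM in HDM libraries and 2820 to 3450 CPM in saline libraries. Of these 10 markers 9 were below 0 in log2 fold change, with a median of −0.19, also after the GC correction. With group only 1 passed as lower, where 0.159% of all genes did, and with the block 2 did, against 1.03% of all genes. The part of either marker list in the Tlx3 difference was not tested.

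The other 3 jugular-side factors did not pass in any of the 17 alternatives run. Prdm12, a PR-domain regulator that pain-sensing neurons need to form, had 81.8, 97.9, 105 and 86.0 CPM in HDM libraries 1 to 4, against 94.8, 103, 97.5 and 96.4 CPM in saline libraries. Its HDM libraries spread widely, with HDM 1 and HDM 4 below and HDM 3 above all saline libraries (log2 fold change −0.08, SE 0.068, 95% interval −0.23 to 0.07, edgeR adjusted p = 0.567). With block and GC correction the Prdm12 value was −0.19 (95% interval −0.30 to −0.08, edgeR adjusted p = 0.135). Runx1, a runt-domain factor that sets apart nonpeptidergic pain neurons, had 67.6, 80.6, 87.0 and 70.7 CPM in HDM libraries, against 71.2, 77.5, 90.3 and 89.5 CPM in saline libraries. Its groups overlapped almost fully (log2 fold change −0.10, SE 0.087, 95% interval −0.29 to 0.08, edgeR adjusted p = 0.565).

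Prrxl1, also called Drg11, a paired-type homeodomain factor of crest-derived pain pathways, had 59.9, 72.8, 76.4 and 63.8 CPM in HDM libraries 1 to 4, against 64.9, 78.9, 78.6 and 82.6 CPM in saline libraries. It was lower in HDM in 4 of 4 batches, by log2 differences of −0.12, −0.12, −0.04 and −0.37, while the groups as a whole overlapped. Means were 68.2 ± 7.69 CPM in HDM libraries and 76.2 ± 7.76 CPM in saline libraries (SD, n = 4 each, log2 fold change −0.16, SE 0.083, 95% interval −0.34 to 0.02, edgeR adjusted p = 0.322, and 0.124 with the block).

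Isl1, shared by both sides, had the lowest coefficient of variation of the 8 in HDM libraries. It had 169, 171, 169 and 175 CPM in HDM libraries 1 to 4, against 168, 166, 177 and 182 CPM in saline libraries, a coefficient of variation of 1.51% in HDM and 4.32% in saline. Those of Pou4f1 were 9.51% in HDM and 4.30% in saline, and in saline Prdm12 was lowest at 3.72%. The log2 fold change of Isl1 was −0.02 (SE 0.042, edgeR adjusted p = 0.839), with the sign turned after the GC correction (0.035, SE 0.038, edgeR adjusted p = 0.76). The group-only 95% interval of −0.11 to 0.07 limits how large a difference these libraries allow. Pou4f1 had 88.9, 108, 106 and 92.9 CPM in HDM libraries, against 91.3, 94.6, 97.8 and 101 CPM in saline libraries (log2 fold change 0.04, SE 0.062, 95% interval −0.09 to 0.17, edgeR adjusted p = 0.765). HDM 1 and HDM 4 were at the low end and HDM 2 and HDM 3 at the high end, so the spread lay within the HDM group.

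**Figure D3:**
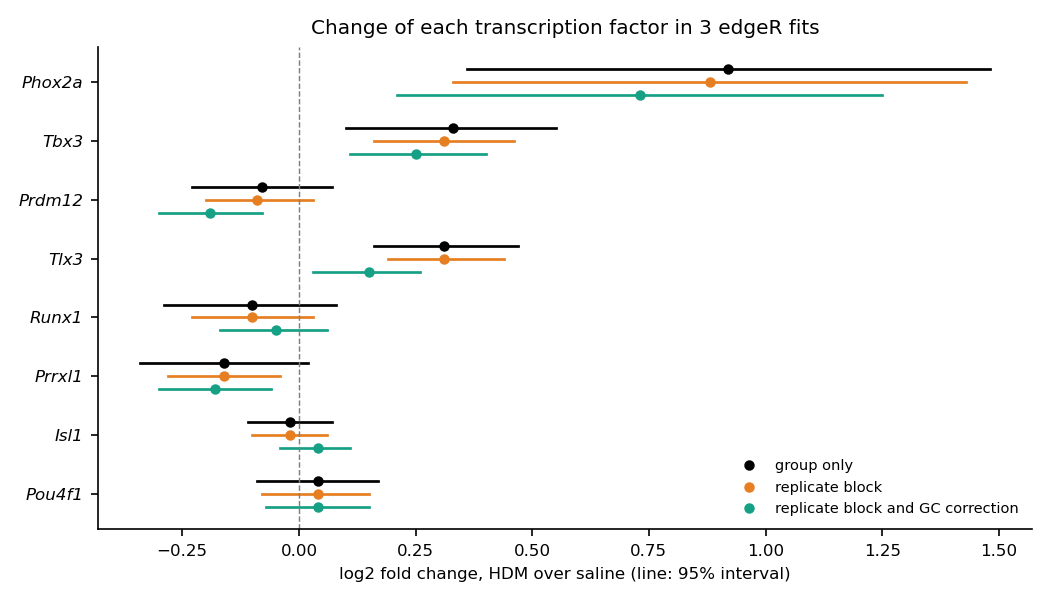
Log2 fold change (HDM over saline) of each factor with its 95% interval in 3 edgeR fits: group only (black), with the replicate block (orange), and with block and GC correction (green). Phox2a, Tbx3 and Tlx3 lie above 0 in all 3 fits, Tlx3 moves to 0.15 in the last of them, and Isl1 and Pou4f1 lie near 0.

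Beyond the group means, the factors also varied between pools. HDM 1 and HDM 4 had the highest Tbx3 and the lowest Prdm12 of all 8 libraries, and HDM 3 had the highest Prdm12 and, among HDM libraries, the lowest Tbx3. Counts of Tbx3 over counts of Prdm12, a ratio that needs no scaling between libraries, were 1.19, 0.907, 0.684 and 1.32 in HDM libraries 1 to 4, against 0.745, 0.703, 0.726 and 0.855 in saline libraries. The ratio of Runx1 to Prrxl1 counts stayed between 1.11 and 1.14 in HDM libraries and between 0.983 and 1.15 in saline libraries. By Pearson r Runx1 and Prrxl1 correlated most closely of the 28 pairs over the 8 libraries (r = 0.91, exact permutation p = 0.00451, adjusted p = 0.119 over 28 pairs, and Spearman rho = 0.81, exact permutation p = 0.0218, adjusted p = 0.152), and r was 0.88 without the 2 libraries farthest from the Runx1 median. By Spearman rho Phox2a with Tlx3 was the closest pair (rho = 0.83, exact permutation p = 0.0154, adjusted p = 0.152, with r = 0.70, exact permutation p = 0.0516, adjusted p = 0.16), and its r was 0.25 with group means taken away. Prdm12 with Prrxl1 had r = 0.82, Phox2a with Tbx3 0.81, Tbx3 with Prdm12 −0.79, and Tlx3 with Prrxl1 −0.78. In the same order, rho was 0.64, 0.81, −0.43 and −0.81. Without the 2 libraries farthest from the median of the first gene named, r was weaker, at 0.38, 0.48, −0.25 and −0.52. None of the 28 pairs passed after adjustment by either measure. With each batch mean taken away, r was 0.90 for Runx1 with Prrxl1, 0.74 for Prdm12 with Prrxl1, 0.89 for Phox2a with Tbx3, −0.91 for Tbx3 with Prdm12 and −0.89 for Tlx3 with Prrxl1. This step was chosen after seeing the data. It leaves the difference between groups in and rests on a single HDM-saline difference per batch.

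**Figure D4:**
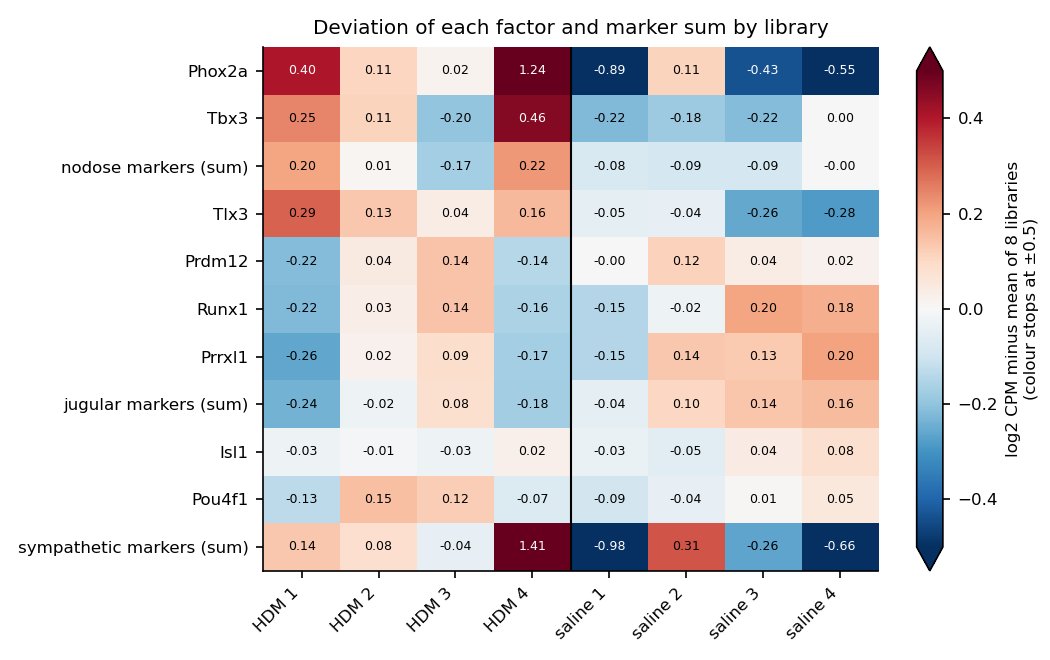
Log2 CPM of each factor, and of 3 summed marker lists, minus its mean over the 8 libraries. HDM 1 and HDM 4 are high in Tbx3 and the nodose marker sum and low in Prdm12, Runx1, Prrxl1 and the jugular marker sum, and Phox2a follows the sympathetic marker sum.

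Marker genes other than the 8 members were then set beside the factors. These lists were written with earlier results of these data known, so the p-values of the relations are not independent evidence. For this, 11 relations of a factor with a marker sum were picked rather than all possible pairs. Adjusted p-values of these relations cover those 11 only, not the pairs left out. The nodose list holds 11 receptors and peptides, among them Htr3a, a serotonin-gated channel, P2rx2, an ATP-gated channel, and Cckar, the cholecystokinin receptor of gut afferents. All 11 were tested and 0 passed with group as the only term. In the blocked fit Cckar and Crhr2 were past the threshold and higher, where 3.01% of all genes were (log2 fold changes 0.23 and 0.27, edgeR adjusted p = 0.0486 and 0.0446). With GC corrected in the blocked fit, Cckar had 0.26 and Crhr2 0.19, and neither passed (edgeR adjusted p = 0.0789 and 0.2). The median log2 fold change was 0.18 and 8 of 11 were above 0, as were 48.5% of all tested genes. P2ry1, Npy2r and Gpr65 were below 0, at −0.08, −0.01 and −0.10. The list summed to 1560, 1370, 1210 and 1580 CPM in HDM libraries 1 to 4, against 1290, 1280, 1280 and 1360 CPM in saline libraries. HDM 1 and HDM 4 were highest, as they were for Tbx3, and HDM 3 was lowest. Much of the sum came from Htr3a (mean 623 CPM in HDM and 549 CPM in saline) and P2rx2 (257 and 242 CPM). Relations of Tbx3 with single markers of the list were not tested. On the log2 scale Tbx3 followed this sum with r = 0.95 (exact permutation p = 0.00067, adjusted p = 0.00246 over 11 relations between factors and marker sums) and rho = 0.79 (exact permutation p = 0.0279, adjusted p = 0.0614). Without the 2 libraries farthest from the median of the sum, HDM 1 and HDM 4, r was 0.84. Phox2a with the same sum had r = 0.70 (exact permutation p = 0.0532, adjusted p = 0.0732) and rho = 0.48 (exact permutation p = 0.243, adjusted p = 0.297), and r = −0.10 without those libraries, so that relation rests on them.

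The jugular list holds 15 genes of crest-type neurons, among them Tac1, the gene of substance P, Mrgprd, a receptor of nonpeptidergic skin neurons, and Trpm8, the cold channel. All 15 were tested and 14 were below 0 in log2 fold change (48.5% of all tested genes were above 0), with a median of −0.21. With group as the only term 0 passed, and with the block Mrgprd passed as lower, where 1.03% of all genes did. Mrgprd had 79.8, 106, 119 and 95.4 CPM in HDM libraries 1 to 4, against 103, 130, 135 and 123 CPM in saline libraries, and was lower in HDM in 4 of 4 batches (blocked log2 fold change −0.30, edgeR adjusted p = 0.00904, and 0.0229 with block and GC correction). The list summed to 649, 752, 808 and 677 CPM in HDM libraries and to 742, 822, 841 and 854 CPM in saline libraries. HDM 1 and HDM 4 were the lowest of all 8.

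Prrxl1 followed the jugular sum with r = 0.97 (exact permutation p = 4.96e-05, adjusted p = 0.000546 over 11 relations), rho = 0.98 (exact permutation p = 0.000397, adjusted p = 0.00218) and r = 0.92 without HDM 1 and HDM 4, the libraries farthest from the median of the sum. Runx1 followed it with r = 0.89 (exact permutation p = 0.00427, adjusted p = 0.0117), rho = 0.90 (exact permutation p = 0.00456, adjusted p = 0.0167) and r = 0.78 without those libraries. Prdm12 had r = 0.85 (exact permutation p = 0.00987, adjusted p = 0.0181) but rho = 0.60 (exact permutation p = 0.132, adjusted p = 0.182) and r = 0.27 without HDM 1 and HDM 4, so its relation rests on them. Tlx3 went the other way, with r = −0.88 (exact permutation p = 0.00538, adjusted p = 0.0118), rho = −0.86 (exact permutation p = 0.0107, adjusted p = 0.0295) and r = −0.74 without those libraries. After each group's mean was taken away, r was 0.97 for Prrxl1, 0.94 for Runx1, 0.86 for Prdm12 and −0.80 for Tlx3, and after the GC correction it was 0.98 for Prrxl1, 0.85 for Runx1, 0.97 for Prdm12 and −0.91 for Tlx3, both chosen after seeing the data. With each batch mean taken away it was 0.98 for Prrxl1, 0.85 for Runx1, 0.81 for Prdm12 and −0.94 for Tlx3, and 0.96 for Tbx3 with the nodose sum. Those batch-centred values rest on a single HDM-saline difference per batch and leave the difference between groups in. Across these libraries the level of Tlx3 therefore did not run with the jugular markers, although it is placed on that side here.

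**Figure D5:**
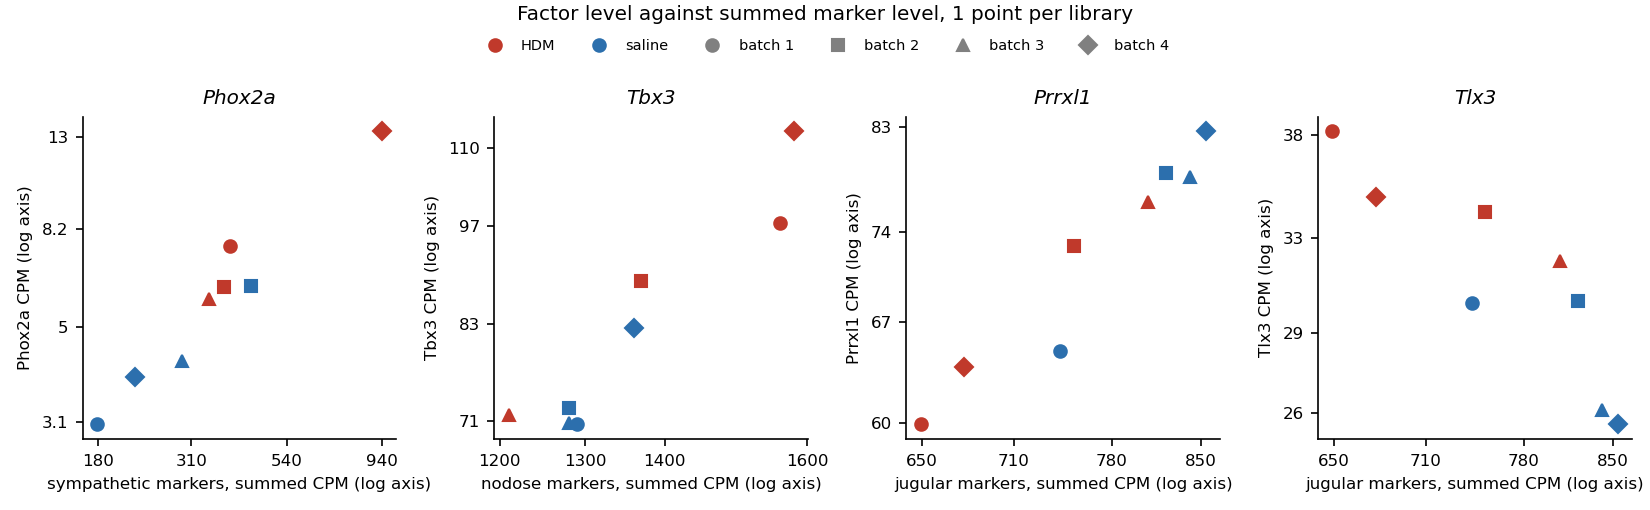
Level of 4 factors (CPM, log axis) against the summed CPM of a marker list (log axis), 1 point per library, HDM in red and saline in blue, with 1 marker shape per batch. Phox2a rises with the sympathetic sum (r = 0.97), Tbx3 with the nodose sum (0.95) and Prrxl1 with the jugular sum (0.97), while Tlx3 runs against the jugular sum (−0.88).

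Phox2a was set beside 10 markers of sympathetic neurons, among them Dbh and Th, enzymes of noradrenaline synthesis, Slc6a2, the noradrenaline transporter, and Hand2, a factor of the sympathetic lineage. None of the 10 was at 0 in all libraries, all 10 had a log2 fold change above 0 (48.5% of all tested genes did), their median was 0.95, and 0 passed in either fit. The list summed to 388, 374, 343 and 940 CPM in HDM libraries 1 to 4, against 179, 439, 294 and 224 CPM in saline libraries. Hand2 had 6.23, 6.82, 6.91 and 22.4 CPM in HDM libraries, against 0.773, 7.65, 3.04 and 1.33 CPM in saline libraries. HDM 4 was at the top and saline 1 at the bottom of this sum and of Phox2a. Phox2a followed the sum with r = 0.97 (exact permutation p = 0.000223, adjusted p = 0.00123), rho = 0.98 (exact permutation p = 0.000397, adjusted p = 0.00218) and r = 0.88 without HDM 4 and saline 1, and r was 0.98 with group means taken away, with batch means taken away and after the GC correction. The part of this signal in the Phox2a difference was not tested. Tbx3 with the sympathetic sum had r = 0.72 (exact permutation p = 0.0409, adjusted p = 0.0643) and rho = 0.74 (exact permutation p = 0.0458, adjusted p = 0.072), and r = 0.10 without HDM 4 and saline 1. Tlx3 had r = 0.57 (exact permutation p = 0.139, adjusted p = 0.169) and rho = 0.74 (exact permutation p = 0.0458, adjusted p = 0.072), with r = 0.73 without those libraries, and Isl1 r = −0.09 (exact permutation p = 0.826, adjusted p = 0.826) and rho = −0.21 (exact permutation p = 0.619, adjusted p = 0.619), with r = −0.97 without them.

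Runx1 was also set beside 11 macrophage markers, which summed to 86.0 to 112 CPM in HDM libraries and 84.4 to 149 CPM in saline libraries. Spi1, a factor of the myeloid lineage, averaged 0.657 CPM in HDM and 0.727 CPM in saline. Runx1 and this sum were not correlated past the threshold (r = −0.48, exact permutation p = 0.232, adjusted p = 0.255, rho = −0.40, exact permutation p = 0.327, adjusted p = 0.36, and r = −0.11 without saline 1 and saline 4).

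Genes that work with the factors were described from lists. Of 14 cofactors tested, Ehmt2, the histone methyltransferase G9a, with which Prdm12 acts, was the 1 that passed as higher and 0 passed as lower, where 1.23% and 0.159% of all genes did. Ehmt2 had 73.7, 73.2, 74.3 and 73.3 CPM in HDM libraries 1 to 4, against 67.7, 65.2, 60.5 and 61.3 CPM in saline libraries, without overlap (log2 fold change 0.21, SE 0.046, edgeR adjusted p = 0.0445, or 0.0296 in the blocked fit). After the GC correction the log2 fold change was 0.08 (edgeR adjusted p = 0.404). It did not pass when any library other than saline 1 was left out, with log2 fold changes between 0.19 and 0.23. The LIM-domain cofactors Ldb1 and Ldb2, through which Isl1 acts, had log2 fold changes of 0.11 and 0.00, and Cbfb, the partner subunit of Runx1, 0.05, none past the threshold. The median over the list was 0.01.

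Among 38 other transcription factors of sensory neurons, 33 were tested and 0 passed with group as the only term, with a median log2 fold change of 0.04. With the block 1 of the 33, Cux2, passed as higher, where 3.01% of all genes did. The log2 fold change of Cux2 was 0.28 (edgeR adjusted p = 0.0405), and 0.20 once GC was corrected in the blocked fit (edgeR adjusted p = 0.179). Hmx1, a homeodomain factor, had 2.18, 2.59, 3.62 and 2.76 CPM in HDM libraries 1 to 4, against 1.69, 1.98, 1.68 and 1.40 CPM in saline libraries, without overlap and without passing (log2 fold change 0.72, SE 0.19, edgeR adjusted p = 0.0706).

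Of 13 genes reported to depend on these factors, all were tested and 0 passed with group as the only term. Dbh and Th are also in the sympathetic list and Avil in the sensory neuron list. Mrgprd, Mrgpra3, Mrgprb4, Trpm8 and Gfra2 are also in the jugular list, so these lists are not independent. With the block Avil, the gene of advillin that marks sensory neurons, passed as higher (log2 fold change 0.14, edgeR adjusted p = 0.0473, and 0.07 with adjusted p = 0.392 with block and GC correction), and Mrgprd and Ntrk3, the neurotrophin-3 receptor, passed as lower. Ntrk3 had 153, 177, 189 and 151 CPM in HDM libraries 1 to 4, against 187, 203, 228 and 194 CPM in saline libraries (blocked log2 fold change −0.28, edgeR adjusted p = 0.00844, and −0.21 with adjusted p = 0.0404 with block and GC correction). HDM 1 and HDM 4 were again the lowest, and only HDM 3 reached the saline range. Ret, a receptor tyrosine kinase, had a log2 fold change of 0.08 and did not pass. The median over the list was −0.14. Without batch 4, the blocked fit kept Mrgprd and Ntrk3 past the threshold but not Avil, Cux2, Cckar or Crhr2, whose log2 fold changes were 0.14, 0.24, 0.21 and 0.24 in that smaller fit.

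Near relatives of the members gave further context. Tlx2, a homeodomain relative of Tlx3, was 1.28-fold higher, with 48.3, 53.2, 45.8 and 55.5 CPM in HDM libraries 1 to 4, against 40.8, 41.5, 39.0 and 37.6 CPM in saline libraries, without overlap (log2 fold change 0.35, SE 0.063, edgeR adjusted p = 0.0216, or 0.016 in the blocked fit). Its transcript GC content was 67.3%, as for Tlx3, and after the GC correction it had 0.19 (edgeR adjusted p = 0.234). It did not pass without HDM 1, HDM 2, HDM 4 or saline 3 either (edgeR adjusted p = 0.0896, 0.0995, 0.0626 and 0.099). Isl2, the relative of Isl1, had a log2 fold change of 0.09 (−0.03 after the GC correction), Tbx2 0.25, Runx3 0.28 and Pou4f2 −0.12, and none of these passed.

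Genes most like each member over the 8 libraries were ranked by Pearson r of log2 CPM among 14423 tested genes with official symbols, as a description. For Phox2a these were Doc2b, Utp23 and Ddc (r = 0.994, 0.987 and 0.981), of which Ddc, an enzyme of amine synthesis, is in the sympathetic list. For Tbx3 they were Nrsn2, Ncald and Ache (0.992, 0.990 and 0.988), and for Tlx3 Aldoa, Ccdc9b and Prmt2 (0.987, 0.983 and 0.983). For Prdm12 they were Ptk2b, Syt7 and Aqp1 (0.969, 0.954 and 0.953), for Runx1 Sorl1, Lsamp and Frmd3 (0.980, 0.973 and 0.972), and for Prrxl1 Tmem233, Plscr2 and Ppp1r2 (0.977, 0.973 and 0.970). For Isl1 they were Samd5, Tmx4 and Cpeb2 (0.979, 0.976 and 0.973), and for Pou4f1 Ttc29, Alpk3 and Ap1ar (0.926, 0.924 and 0.923). Fellow members ranked lower, with Prrxl1 at rank 74 for Runx1 and Runx1 at rank 55 for Prrxl1. Prrxl1 was at rank 147 for Prdm12, and Tbx3 at rank 494 for Phox2a.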

How the data were processed

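RNA was measured in pooled vagal ganglia of 4 HDM and 4 saline libraries. Per the labels' protocols, RNA was purified with a Qiagen micro kit, and stranded mRNA libraries (Illumina) were read as 50 bp pairs. The deposited table holds raw counts per gene, made with featureCounts on GRCm38 (mm10) per the submitters' processing notes, with aligner, versions and strand mode not given in the sources used here. The gene length in bases is the other column used, a count of merged exon bases per the file headers. Columns were assigned by the column names in the labels. Of 55335 genes, 55154 matched GENCODE M21, which gave symbols and transcript GC content (longest transcript).

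Genes were kept with filterByExpr and scaled by TMM in edgeR 4.0.16 (R 4.3.3), and HDM was compared with saline by the quasi-likelihood F-test (2-sided, group only) with Benjamini-Hochberg adjustment over 17618 genes. A library's count of 0 would allow up to 3 counts, 0.0959 to 0.125 CPM, for counting error only. Nothing states that pools came from separate cohorts beyond the batch label, so p-values measure the spread between these pools. The batch labels pair the libraries, and the blocked fit is given where a call changed. Same-numbered libraries' deviations from group means correlated by −0.0484 to 0.0388 over genes, so the pairing rests on the labels. The GC correction is an offset per library from a natural spline (4 degrees of freedom) of log2 CPM on GC, using genes whose mean log2 CPM exceeds 3. Other alternatives were RLE factors, 2 other filters, DESeq2 1.42.0, limma-voom (limma 3.58.1), an adjusted p of 0.10 and leaving out each library. The fits were tested on simulated counts. Correlations of log2 CPM used exact permutation of the 8 libraries.

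The members and lists were chosen with earlier results of these data known. Named genes are the 8 members, those of a list past the threshold in either fit or with its smallest p or highest level, and the 3 genes most like each member. Further genes named for their known role, among them the cofactor genes Ldb1, Ldb2 and Cbfb and the relatives of members, were chosen after their values were seen. Some genes of these lists are not reported here.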

Additional observations from a re-analysis of the deposited data

Results flagged for a closer look

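Of 46 sets of 4 libraries examined, 4 held a library far from the other 3 of its group, and chance gives such a gap in about 1 of 20 sets. HDM 4 had a summed sympathetic marker level of 940 CPM, against 343 to 388 CPM in the other HDM libraries and 179 to 439 CPM in saline libraries, and it is the library with the highest Phox2a. Saline 4 had 82.4 CPM of Tbx3, against 70.6 to 72.5 CPM in the other saline libraries. Saline 4 also had the highest nodose marker sum of its group, 1360 CPM, against 1280 to 1290 CPM. Cux2 was lowest in saline 3, at 49.8 CPM against 53.5 to 54.2 CPM in the other saline libraries.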

How the results depend on the processing

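Of 17618 genes 244 passed with group only (216 higher, 28 lower), 713 with the replicate block (531 and 182), 40 with block and GC correction, 0 with the GC correction alone (2099 at an unadjusted p under 0.05, other tools not run with it), 722 of 31988 without a filter (421 and 301), 871 in DESeq2 (603 and 268), 709 at an adjusted p under 0.10, and 130 with the block without batch 4. Leaving out single libraries gave 0 to 376, reaching 0 for HDM 1, HDM 2 and saline 3 (unadjusted p under 0.05 in 2449, 2452 and 2373, other tools not run), 376 without HDM 3, 60 without HDM 4 and 97 without saline 2. Of the 8 factors, 0 passed with group only and with block and GC correction, 2 with the block, 3 without a filter (Phox2a, Tbx3 and Tlx3), 1 in DESeq2 (Tlx3), 2 at an adjusted p under 0.10 (Phox2a and Tlx3), and 0 to 2 without single libraries. Phox2a ran from 0.55 to 1.14 in log2 fold change, Tbx3 from 0.22 to 0.43 and Tlx3 from 0.15 to 0.35 over 17 alternatives. Prdm12 (−0.19 to −0.027), Runx1 (−0.17 to −0.026) and Prrxl1 (−0.24 to −0.094) stayed below 0 in all 17. Isl1 changed sign to 0.035 with the GC correction, to 0.035 with block and GC correction and to 0.00018 without saline 4, and Pou4f1 to −0.0032 without HDM 2, and the cause was not tested. Leaving out single libraries gave −0.043 to 0.00018 for Isl1 and −0.0032 to 0.087 for Pou4f1. Depth limits Phox2a most, with 83 to 355 counts per library.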

Other observations

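Within the jugular-side factors the balance of Tlx3 to the others differed between groups in the same direction in every batch. Counts of Tlx3 over counts of Prrxl1 were 0.638, 0.470, 0.419 and 0.548 in HDM libraries 1 to 4, against 0.465, 0.385, 0.332 and 0.311 in saline libraries, higher in HDM in 4 of 4 batches with overlapping groups. Counts of Tlx3 over counts of Runx1 were 0.565, 0.425, 0.368 and 0.494 in HDM libraries, against 0.424, 0.391, 0.289 and 0.287 in saline libraries, also higher in 4 of 4 batches. Counts of Pou4f1 over counts of Isl1, the factors shared by both ganglia, were 0.525, 0.629, 0.628 and 0.532 in HDM libraries, against 0.543, 0.569, 0.551 and 0.554 in saline libraries, higher in HDM in 2 of 4 batches. The saline values lay between the low pair and the high pair of HDM libraries. Tlx3 has a transcript GC content of 67.3%, against 51.2% for Prrxl1 and 46.4% for Runx1, and these ratios carry no GC correction. With it, the log2 fold changes were 0.15 for Tlx3, −0.18 for Prrxl1 and −0.05 for Runx1, against 0.31, −0.16 and −0.10 with group only. These ratios were chosen after values were seen and were not tested.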
